A study of Mus musculus with 15 samples.

Results

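The salt-inducible kinase pathway was followed through 9 genes, chosen by symbol: the kinase genes Sik1, Sik2 and Sik3, the genes of their upstream activator (Stk11, which encodes LKB1, and Cab39, which encodes its partner MO25 alpha), the coactivator genes Crtc1, Crtc2 and Crtc3, and Creb1, which encodes the transcription factor that the coactivators serve. All 9 were found among the 41819 genes of the table of the pterosin B experiment, and Sik1 and Sik3 were among the 2275 genes of the table of the knockout experiment. The other 7 genes were not listed there and have no value here for the knockout experiment. Only genes with an authors' fold of at least 2 and a false discovery rate of at most 0.05 are listed there. RNA sequencing had been done on 15 cultures of mouse bone marrow monocytes, which RANKL turns into bone-resorbing osteoclasts, in 5 groups of 3 libraries, all labelled C57BL/6J.

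In the knockout experiment, WT is labelled as the wild-type control and KO as carrying a Sik3 deletion confined to the osteoclast lineage, from Rank_Cre/+; Sik3_flox/flox mice, in which Cre is driven from the Rank locus. The protocol also lists Rank_Cre/+ mice without the floxed allele, and the sources used here do not say whether WT carried Cre. Both groups had M-CSF at 50 ng/ml for 2 days and then M-CSF with RANKL, each at 50 ng/ml, for 2 days. In the pterosin B experiment, SC had vehicle and no RANKL, SCR had RANKL at 50 ng/ml for 3 days, and SCRP had the same RANKL with pterosin B at 300 µM. All 3 of these groups also had M-CSF at 50 ng/ml throughout, alone for the first 2 days, and the time for which SC was kept afterwards is not given. Changes with RANKL below compare SCR with SC, and any difference in culture time between them cannot be told apart from RANKL. Whether the 3 libraries in each group had separate animals as their source is not labelled, so the p-values measure the spread between these libraries, which may be technical.

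LKB1, held in its active form by MO25 and a STRAD pseudokinase, phosphorylates and activates the salt-inducible kinases. These kinases phosphorylate the CRTC coactivators and the class IIa histone deacetylases, which 14-3-3 proteins then hold in the cytoplasm. Protein kinase A, switched on by cyclic AMP, phosphorylates the salt-inducible kinases in turn and blocks them, so that CRTC proteins enter the nucleus and join CREB on its target genes. Sik1 is itself a known CREB target in several tissues. Pterosin B is a bracken fern compound that has been used as an inhibitor of SIK3 signalling.

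The core letters of a CREB site are TGACG, the start of the full site TGACGTCA, and they were searched on both strands in the RefSeq promoters of the GRCm38.p6 build, each 250 bases before to 50 bases after the start of the gene. Entries were found for 7 of the 9 genes, and Sik1 and Crtc2 had none. TGACG was present in 4 of the 7 (Sik2, Sik3, Stk11 and Cab39), against 20.8% of all 32851 promoters. The longer TGACGT, which contains it, was present in 3 of the 7 (Sik2, Sik3 and Cab39), against 7.51%. The full TGACGTCA was in none of the 7, against 1.79%. The Sik2 and Sik3 promoters are shown because they hold the most copies, with TGACG in capitals (CGTCA where it lies on the other strand), from 140 bases before to 20 bases after the start. The Sik2 stretch is chr9:51009054-51009213 on the minus strand, and the Sik3 stretch is chr9:46012680-46012839 on the plus strand.
Sik2 promoter: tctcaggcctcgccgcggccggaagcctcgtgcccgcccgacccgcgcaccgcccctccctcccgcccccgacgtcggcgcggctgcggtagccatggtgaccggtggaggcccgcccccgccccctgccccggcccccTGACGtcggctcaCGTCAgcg
Sik3 promoter: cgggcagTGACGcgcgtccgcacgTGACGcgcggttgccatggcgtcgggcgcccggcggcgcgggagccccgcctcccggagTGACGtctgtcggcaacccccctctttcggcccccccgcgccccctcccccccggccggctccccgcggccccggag
The Sik2 copies begin 1 base before and 12 bases after the start, on opposite strands. The Sik3 copies begin 133, 116 and 57 bases before the start, all on the plus strand. In Stk11 the copy lies 218 bases before the start and in Cab39 it lies 4 bases before. A match describes the letters of these windows and is not evidence of binding.

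Depth was similar across the groups of each experiment, and the cultures carried the markers their labels call for. Exon reads ranged from 37138648 to 49927591 a library in SC, SCR and SCRP, with 3211716 to 4282065 intron reads, and the recovered totals in the knockout experiment ranged from 21267111 to 25932103. The 9 osteoclast markers, among them Acp5, Ctsk and Nfatc1, summed to between 64.0 and 68.5 CPM (counts scaled to library size) in SC, 5304 to 5575 in SCR and 1011 to 1339 in SCRP, and Calcr was at 0 in SC. In WT they summed to between 13840.1 and 14283 CPM and in KO to between 3301 and 3510.2, with all 9 listed. The 8 monocyte and macrophage markers summed to between 5677 and 5909 CPM in SC, 2763 to 2956 in SCR and 2982 to 3195 in SCRP, and the 5 of them listed in the knockout table to 458 to 499 in WT and 1752 to 1819 in KO. Of the other marker lists in SC, SCR and SCRP, the 6 lymphoid genes summed to at most 0.367 CPM and the 3 mast cell genes to at most 0.0528 CPM. The 8 neutrophil genes summed to 12.9 to 49.0 CPM, highest in SC, the 7 stromal and osteoblast genes to 10.9 to 15.7, and the 6 erythroid and megakaryocyte genes to 245 to 259 in SC against 29.8 to 49.4 in the other groups. The part that the changing mix of cells plays in the results for the 9 genes was not tested, and in such bulk RNA fewer cells of a type and less RNA per cell cannot be told apart.

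All 9 genes were expressed, and the RNA of the LKB1 complex was the most abundant. Levels are given here in RPKM (reads normalised to gene length and sequencing depth), so that genes of different length can be compared, as the mean of the 9 libraries of the pterosin B experiment. Cab39 stood at 32.5 and Stk11 at 27.5 RPKM, above 93.2% and 91.9% of the genes that had reads. Crtc2 followed at 6.83, Sik3 at 5.52 and Creb1 at 5.45 RPKM. Sik1 at 3.02, Sik2 at 2.81, Crtc3 at 2.72 and Crtc1 at 1.64 RPKM were the lowest of the 9.

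Sik1 changed its place in this order from group to group. In SC, Sik1 (1.41 ± 0.148 RPKM, SD, n = 3) and Crtc1 (1.44 ± 0.0578) shared the lowest place with overlapping ranges. In SCR, Sik1 stood at 4.78 ± 0.497 RPKM, its range overlapping that of Creb1 (5.30 ± 0.210) above it. In SCRP, Sik1 (2.87 ± 0.560), Sik2 (3.13 ± 0.138) and Crtc3 (3.19 ± 0.135) had overlapping ranges. Other neighbours that could not be separated by their ranges were Sik3 and Creb1 and also Crtc3 and Sik2 in SC, Crtc2 and Sik3 in SCR, and Cab39 and Stk11 in SCRP.

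The 3 kinase genes summed to 8.63 ± 0.413 RPKM in SC, 14.3 ± 0.890 in SCR and 11.1 ± 0.785 in SCRP. Sik3 gave the largest share of that sum in every group, at 57.2%, 45.6% and 46.2%. The share of Sik1 was 16.3% ± 0.939 in SC, 33.4% ± 1.37 in SCR and 25.6% ± 3.13 in SCRP, and these ranges did not overlap. The 3 coactivator genes summed to 10.3 ± 0.118, 10.5 ± 0.793 and 12.8 ± 0.191 RPKM, and Crtc2 gave 60.9%, 62.9% and 59.7% of the sum. The share of Sik1 in the kinase RNA moved between groups by more than its spread, and the Crtc2 share overlapped between SC and each RANKL group but not between SCR (61.4% to 64.4%) and SCRP (58.8% to 60.8%). RPKM is scaled by library totals alone, without the correction for composition used in the tests below.

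**Figure D1:**
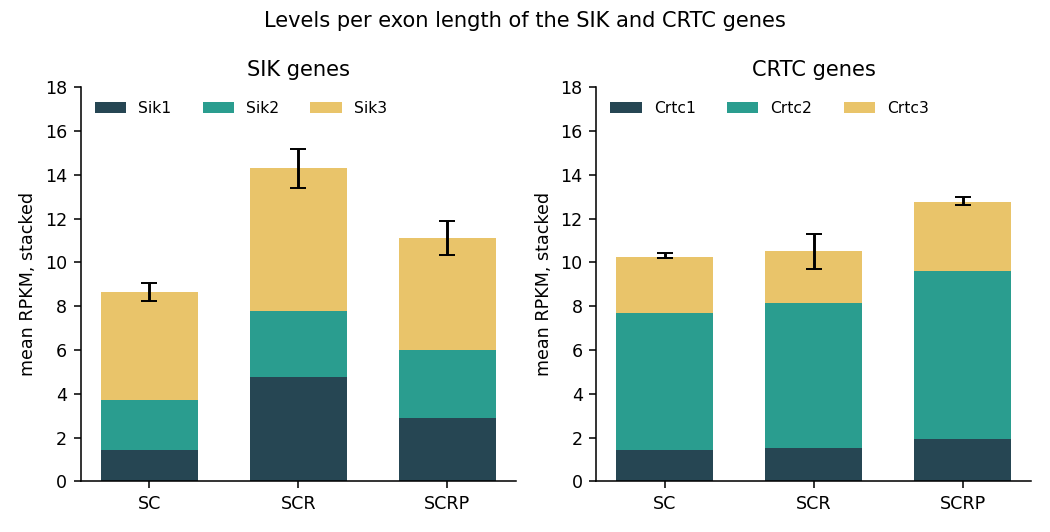
Stacked mean RPKM (vertical axis) of the SIK genes and of the CRTC genes in SC, SCR and SCRP (3 libraries each); error bars are the SD of the summed RPKM. The SIK sum is 8.63 in SC, 14.3 in SCR and 11.1 in SCRP, and the Sik1 block is tallest in SCR.

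Sik3, the targeted kinase gene, was examined first in the knockout experiment (ENSMUSG00000034135, chromosome 9, 46012820 to 46224194, plus strand, GRCm38). Its exon reads stood at 58.3, 59.4 and 56.0 CPM in WT and at 23.9, 17.6 and 19.4 in KO. Every KO library was below every WT library, and none was near 0. Sik3 fell by 1.52 ± 0.08 (SE) on the log2 scale, 2.86-fold (edgeR, adjusted p = 5.31e-14), and the authors' deposited table gives a fold of 2.81. The count covers all exons of the gene, and which of them the floxed allele removes is not given in the sources used here. The part of the remaining reads that comes from undeleted cells or from exons outside the deleted stretch was not tested.

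Sik1, a kinase gene that many cells induce within hours of a cyclic AMP signal, was lower in the Sik3 knockout (ENSMUSG00000024042, chromosome 17, 31844250 to 31855804, minus strand). It stood at 27.0, 24.1 and 24.2 CPM in WT and at 8.60, 8.96 and 9.72 CPM in KO. The groups were far apart, with the highest KO library under the lowest WT library. Sik1 fell by 1.46 ± 0.09 on the log2 scale, 2.75-fold (edgeR, adjusted p = 1.14e-12), and the authors' deposited table gives a fold of 2.70.

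Both listed genes were called lower in KO, in a table where 99.5% of 1773 genes tested were called, 51.3% of those tested as lower. That table lists only genes with an authors' fold of at least 2 and a false discovery rate of at most 0.05. The calls of Sik1 and Sik3 there are therefore not independent of how the list was made. Without any 1 library, the change lay between -1.51 and -1.41 for Sik1 and between -1.64 and -1.43 for Sik3. Within 5 megabases of Sik1, 37 of the 219 genes tested in the pterosin B experiment were also in the knockout table (16.9%), against 13.8% of all 13650 genes tested. Within 5 megabases of the targeted gene Sik3 the count was 7 of 82 (8.54%), and within 1 megabase it was 4 of 22 for Sik1 (18.2%) and 3 of 18 for Sik3 (16.7%). Sik1 moved with the osteoclast markers, which were also lower in KO by the sums given above, and their part in it was not tested. Of the other marker lists, Pf4 and Itga2b, of the erythroid and megakaryocyte list, summed to at most 42.3 CPM in WT and to 240.0 to 280.2 in KO. The neutrophil gene S100a8 stood at 5.86 to 7.96 CPM in WT and 12.3 to 15.2 in KO, and the lymphoid genes Cd79a and Nkg7 summed to 0 to 0.133 CPM in WT and 0.376 to 0.872 in KO. Their part in the Sik1 value was not tested either.

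In the pterosin B experiment Sik1 was the most changed of the 9 genes. Its exon reads stood at 7.86, 9.36 and 7.80 CPM in SC, 29.6, 24.3 and 25.5 in SCR, and 19.3, 13.5 and 14.6 in SCRP. The 3 groups did not overlap, and SCRP lay between the others. Sik1 was higher in SCR than in SC by 1.67 ± 0.13 on the log2 scale, 3.18-fold (edgeR, adjusted p = 9.47e-09). That was a larger change than 90.2% of the genes tested. With pterosin B it was 1.68-fold lower than with RANKL alone (log2 change -0.75 ± 0.12, adjusted p = 1.55e-04) and still 1.89-fold above SC (log2 change 0.92 ± 0.13, adjusted p = 1.58e-05). The sums of the osteoclast markers stood in the same order, lowest in SC and highest in SCR, and their part in the Sik1 values was not tested.

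**Figure D2:**
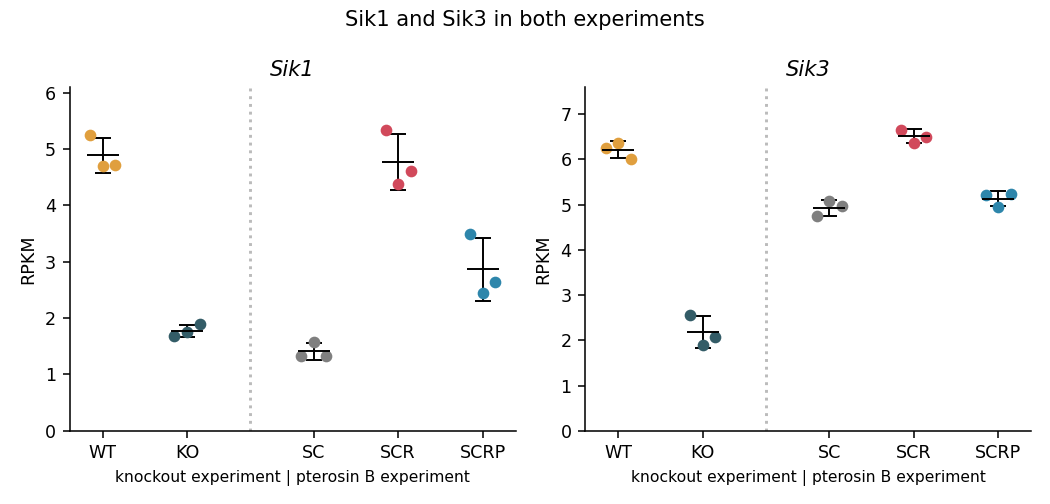
RPKM (vertical axis, from 0) of Sik1 and Sik3 in each library of the knockout experiment (WT, KO) and the pterosin B experiment (SC, SCR, SCRP); bars are the mean and SD of 3 libraries, and the dotted line separates tables that were scaled apart. Sik1 means are 4.89 in WT and 4.78 in SCR, against 1.77 in KO and 1.41 in SC, while Sik3 is lowest in KO at 2.18.

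Side by side, Sik1 stood at 4.89 ± 0.315 RPKM in WT and 4.78 ± 0.497 in SCR, and at 1.77 ± 0.111 in KO and 1.41 ± 0.148 in SC. Sik3 stood at 6.21 ± 0.186 RPKM in WT, 6.51 ± 0.152 in SCR, 4.93 ± 0.171 in SC and 2.18 ± 0.349 in KO. The 2 tables were scaled separately and RANKL was given for 2 days in one experiment and 3 in the other, so no test was made between them.

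Sik3 rose with RANKL and was lower again with pterosin B. Its exon reads stood at 51.2, 54.7 and 53.0 CPM in SC, 67, 64.0 and 65.1 in SCR, and 52.1, 49.4 and 52.0 in SCRP. SCR was above both other groups with no overlap, and SC and SCRP overlapped. Sik3 rose 1.23-fold with RANKL (log2 change 0.30 ± 0.05, adjusted p = 9.58e-05) and was 1.28-fold lower with pterosin B added (-0.35 ± 0.05, adjusted p = 5.30e-05). Between SCRP and SC the log2 change was -0.05 ± 0.05 and did not pass (adjusted p = 0.452). SCR is shared by the first pair of comparisons, so a high SCR value enters both.

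Sik2, the kinase gene best known for its part in fat and liver (ENSMUSG00000037112, chromosome 9, 50892801 to 51009073, minus strand), was higher in both RANKL groups than in SC. Its exon reads stood at 24.6, 26.7 and 24.1 CPM in SC, 33.6, 28.6 and 30.5 in SCR, and 33.5, 31.8 and 30.7 in SCRP. Both RANKL groups lay above SC, and they overlapped each other. Sik2 rose 1.23-fold with RANKL (0.30 ± 0.08, adjusted p = 0.00317) and 1.27-fold between SC and SCRP (0.35 ± 0.08, adjusted p = 0.00105). With pterosin B added to RANKL the log2 change was 0.05 ± 0.08 and did not pass (adjusted p = 0.652). Sik2 shares 1429 exon bases with Ppp2r1b on the opposite strand, and 78.6% of its exon reads were unique. On unique reads alone the RANKL change was 0.35 ± 0.09 and the pterosin B change -0.02 ± 0.09.

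**Figure D3:**
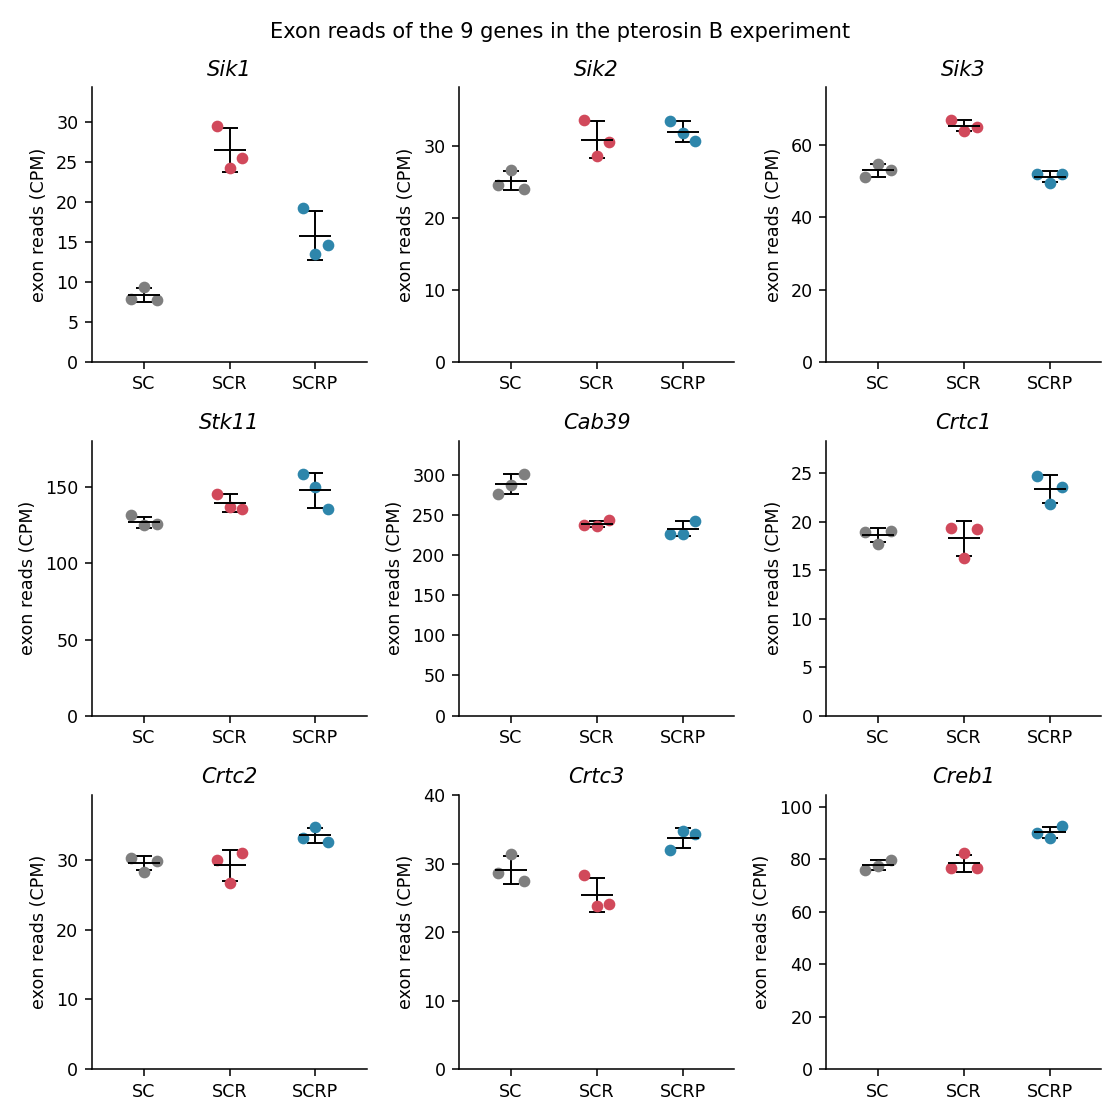
Exon reads in CPM (vertical axes, from 0, each gene on its own scale) of the 9 genes in each library of SC, SCR and SCRP; bars are the mean and SD of 3 libraries. Sik1 ranges from 7.80 to 29.6 CPM with 3 separate groups, while the coactivator genes and Creb1 are highest in SCRP.

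Stk11, the kinase gene of the LKB1 complex (ENSMUSG00000003068, chromosome 10, 80115803 to 80130682, plus strand), stood at 132, 125 and 126 CPM in SC, 146, 137 and 136 in SCR, and 159, 150.0 and 136 in SCRP. Every RANKL library was above every SC library, and SCR and SCRP overlapped. Stk11 was 1.16-fold higher in SCRP than in SC (0.22 ± 0.06, adjusted p = 0.00323). The change with RANKL alone was 0.13 ± 0.06 and just missed the threshold (adjusted p = 0.0519), and that with pterosin B added was 0.09 ± 0.06 (adjusted p = 0.252). Stk11 shares 232 exon bases with Cbarp on the opposite strand, a gene with at most 113 reads a library, and 99.8% of its own reads were unique.

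Cab39, which encodes the scaffold that locks LKB1 in its active form (ENSMUSG00000036707, chromosome 1, 85793441 to 85851576, plus strand), was the one gene of the 9 called lower with RANKL by edgeR's test, while Crtc3 just missed the threshold and passed it under some of the alternative settings. It stood at 276, 288 and 302 CPM in SC, 238, 236 and 244 in SCR, and 227, 227 and 243 in SCRP. Both RANKL groups lay below SC with no overlap and overlapped each other. Cab39 fell 1.21-fold with RANKL (-0.27 ± 0.05, adjusted p = 7.10e-05) and was 1.24-fold lower in SCRP than in SC (-0.31 ± 0.05, adjusted p = 1.99e-05). Adding pterosin B to RANKL gave -0.04 ± 0.05, which did not pass (adjusted p = 0.534).

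The coactivator genes and Creb1 did not pass the test for RANKL but were higher on exon reads where pterosin B was added. Crtc3, whose product acts in fat and immune cells (ENSMUSG00000030527, chromosome 7, 80586627 to 80688877, minus strand), stood at 28.6, 31.4 and 27.4 CPM in SC, 28.3, 23.8 and 24.1 in SCR, and 32.0, 34.7 and 34.3 in SCRP. SCRP was above both other groups, while SC and SCR overlapped. Crtc3 was 1.33-fold higher in SCRP than in SCR (0.41 ± 0.08, adjusted p = 8.38e-04), and the change with RANKL alone was -0.20 ± 0.08 (adjusted p = 0.0511). Against SC it was 1.16-fold higher (0.21 ± 0.08, adjusted p = 0.0366), a call lost without SC replicate 1 (adjusted p = 0.0841), SC replicate 3 (0.119), SCRP replicate 2 (0.117) or SCRP replicate 3 (0.0802).

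Crtc1, the coactivator best known from neurons (ENSMUSG00000003575, chromosome 8, 70382355 to 70439579, minus strand), stood at 18.9, 17.7 and 19 CPM in SC, 19.4, 16.3 and 19.3 in SCR, and 24.7, 21.8 and 23.6 in SCRP. All SCRP libraries were above all others, and SC and SCR overlapped. Crtc1 was 1.27-fold higher in SCRP than in SCR (0.35 ± 0.09, adjusted p = 0.00484) and 1.26-fold higher than in SC (0.33 ± 0.09, adjusted p = 0.00408). The RANKL change was -0.02 ± 0.09 (adjusted p = 0.896).

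Crtc2, the most abundant coactivator RNA and a regulator of glucose output in liver (ENSMUSG00000027936, chromosome 3, 90254163 to 90264125, plus strand), stood at 30.3, 28.3 and 29.8 CPM in SC, 30.0, 26.7 and 30.9 in SCR, and 33.1, 34.7 and 32.6 in SCRP. SCRP again lay above both other groups, by a small margin. Crtc2 was 1.14-fold higher in SCRP than in SCR (0.19 ± 0.07, adjusted p = 0.0409) and than in SC (0.18 ± 0.07, adjusted p = 0.0383), and the RANKL change was -0.01 ± 0.07 (adjusted p = 0.905). The call against SCR was lost without SCR replicate 1 (adjusted p = 0.0604), SCR replicate 2 (0.181), SCRP replicate 1 (0.0682), SCRP replicate 2 (0.135) or SCRP replicate 3 (0.0529). The call against SC was lost without SC replicate 2 (0.122), SC replicate 3 (0.0576), SCRP replicate 1 (0.0584) or SCRP replicate 2 (0.138), and both were lost with no filter on low counts (0.0587 and 0.0667).

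Creb1 (ENSMUSG00000025958, chromosome 1, 64532645 to 64604548, plus strand) stood at 76.0, 77.4 and 79.7 CPM in SC, 76.6, 82.3 and 76.7 in SCR, and 90.1, 88.2 and 92.5 in SCRP. SC and SCR overlapped, and SCRP was above both. Creb1 was 1.15-fold higher in SCRP than in SCR (0.20 ± 0.05, adjusted p = 0.00349) and 1.16-fold higher than in SC (0.22 ± 0.05, adjusted p = 0.00121). The RANKL change was 0.01 ± 0.05 (adjusted p = 0.821).

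Counted together, 4 of the 9 genes were called in SCR against SC, 3 higher and 1 lower, in a comparison where 59.1% of the 13650 genes tested were called, 30.7% higher and 28.4% lower. In SCRP against SCR, 6 of the 9 were called, 4 higher and 2 lower, against 37.8% of all genes, with 17.9% called higher and 19.9% lower. In SCRP against SC, 8 of the 9 were called, 7 higher and 1 lower, against 56.0% of all genes, with 28.6% higher and 27.4% lower. With RANKL calls so common, 4 of 9 is no more than the background. The median log2 change of the 9 was 0.01 for RANKL, where that of all genes was 0.02. It was 0.09 for pterosin B added to RANKL, against 0.00, and 0.22 for SCRP against SC, against 0.02.

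Apart from Sik1, the changes with RANKL were small beside those of the rest of the transcriptome. The median absolute log2 change of the 9 genes was 0.20 with RANKL and 0.20 with pterosin B, and that of all genes was 0.39 and 0.23. The groups did not overlap for 5 of the 9 genes in SCR against SC, 6 in SCRP against SCR and 8 in SCRP against SC, where 65.4%, 49.3% and 61.5% of all genes did not overlap. Scaling by library totals alone moved the median of all genes by 0.11 in SCR against SC and 0.12 in SCRP against SC. It also moved the share of calls that were higher from 52.0% to 62.4% and from 51.1% to 64.0%, and it turned the uncalled changes of Crtc1 and Crtc2 with RANKL to 0.09 and 0.10.

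**Figure D4:**
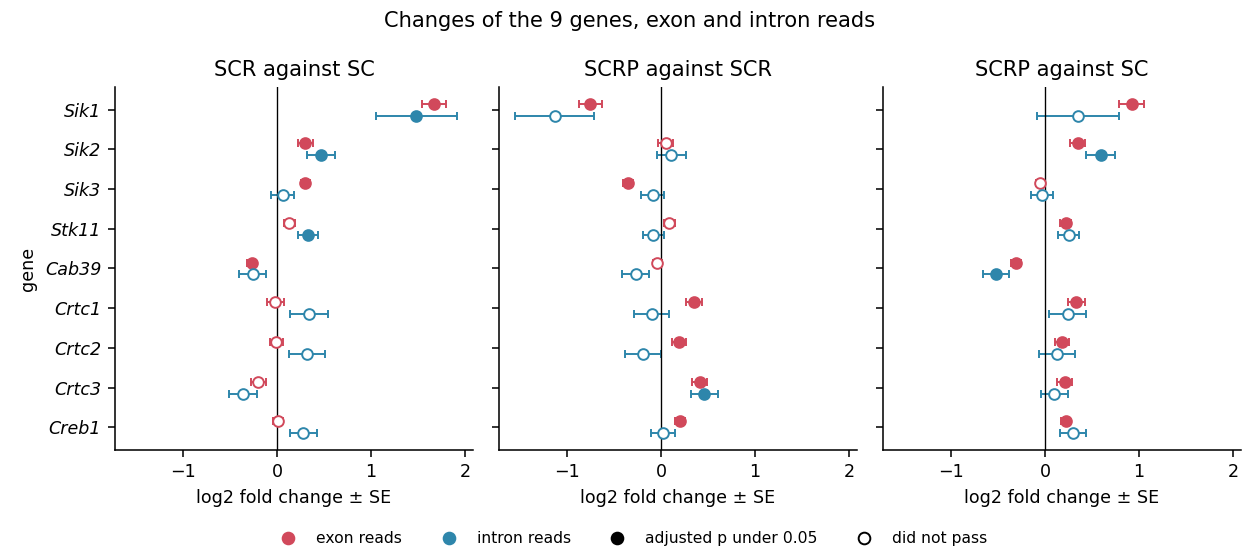
Log2 fold change with its SE (horizontal axis) of the 9 genes in each comparison of the pterosin B experiment, for exon reads (red) and intron reads (blue); filled points had an adjusted p under 0.05. Sik1 shows the largest change in each comparison by exon reads, at 1.67, -0.75 and 0.92, and the intron reads carry wider errors.

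Intron reads, which come largely from RNA not yet spliced, were counted in the same libraries and gave a second readout at lower depth. With RANKL, 3 of the 9 genes were called higher and none lower, where 31.6% of 12665 genes were called and 16.3% were called higher. Sik1 held 7.95, 7.91 and 6.27 intron CPM in SC, 28.8, 10.3 and 22.5 in SCR, and 13.7, 3.72 and 10.8 in SCRP, from 15 to 125 reads a library. SCR was above SC in every library but SCR and SCRP overlapped, with replicate 2 the lowest of both. The intron change of Sik1 was 1.48 ± 0.43 with RANKL (adjusted p = 0.00935), a call lost without SCR replicate 1 (1.16, adjusted p = 0.0856), and -1.13 ± 0.42 with pterosin B added, which did not pass (adjusted p = 0.0729).

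Sik2 and Stk11 were the other intron calls for RANKL. Sik2 held 63.9, 91.5 and 102 intron CPM in SC, 116, 133 and 108 in SCR, and 108, 136 and 141 in SCRP. Every SCR library was above every SC library, and the change was 0.47 ± 0.15 (adjusted p = 0.0167), lost without SC replicate 1 (0.30, adjusted p = 0.148) or SCR replicate 2 (0.39, adjusted p = 0.0858). Stk11 held 136, 125 and 125 intron CPM in SC, 161, 165 and 159.8 in SCR, and 151, 167 and 141 in SCRP. SCR was again above SC throughout, and the change was 0.33 ± 0.11 (adjusted p = 0.0188), lost without SC replicate 2 (adjusted p = 0.0668), SC replicate 3 (0.0571) or SCR replicate 2 (0.0542).

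For pterosin B added to RANKL, 1 of the 9 genes was called on intron reads, higher, where 14% of all genes were, and 6.21% called higher. It was Crtc3, with 90.9, 87.3 and 78.7 intron CPM in SC, 62.3, 61.9 and 76.3 in SCR, and 83.3, 105 and 86.9 in SCRP. SCRP lay above SCR with no overlap, and the change was 0.46 ± 0.14 (adjusted p = 0.0328), beside 0.41 on exon reads. That call was lost without SCR replicate 1 (adjusted p = 0.123), SCR replicate 2 (0.124), SCRP replicate 2 (0.206) or SCRP replicate 3 (0.0509). The intron changes of Crtc1, Crtc2 and Creb1 were -0.10 ± 0.19, -0.19 ± 0.19 and 0.02 ± 0.13, beside 0.35, 0.19 and 0.20 on exon reads. None of these intron changes passed (edgeR, adjusted p = 0.819, 0.589 and 0.949).

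The intron reads of Sik3 held a narrow range in all groups. They stood at 97.8, 100.1 and 97.5 CPM in SC, 107, 105 and 96.3 in SCR, and 91.9, 99.9 and 97.4 in SCRP. The groups overlapped, and the changes were 0.06 ± 0.12 with RANKL (adjusted p = 0.766) and -0.09 ± 0.12 with pterosin B added (adjusted p = 0.713), beside 0.30 and -0.35 on exon reads. Whether the exon change differed from the intron change was tested directly, and for Sik3 that difference was 0.24 ± 0.13 with RANKL (adjusted p = 0.403) and -0.27 ± 0.13 with pterosin B (adjusted p = 0.456).

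In SCRP against SC, 2 of the 9 genes were called on intron reads, 1 higher and 1 lower, against 28.0% of all genes, with 13.8% higher and 14.2% lower. Sik2 was higher (0.59 ± 0.15, adjusted p = 0.00385). Cab39, at 132, 124 and 123 intron CPM in SC and 66.3, 91.2 and 106 in SCRP, was lower with no overlap (-0.52 ± 0.14, adjusted p = 0.00724), a call lost without SCRP replicate 1 (-0.36, adjusted p = 0.0694). The groups did not overlap for 7 of the 9 genes in SCR against SC, 1 in SCRP against SCR and 4 in SCRP against SC, where 43.5%, 30.1% and 40.6% of all genes did not. Scaled by the exon totals, the share of intron calls that were higher in SCRP against SC went from 49.4% to 59.5%.

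A difference between the exon and the intron change passed edgeR's test for none of the 9 genes (0 of 9 in each comparison, where 3.62%, 0.440% and 2.93% of 11580 genes were called in SCR against SC, SCRP against SCR and SCRP against SC). At an unadjusted p under 0.05 the count was also 0 of 9 in each, where 16.1%, 11.4% and 15.5% of all genes were, and the lowest unadjusted p values from the same edgeR fits were 0.0681, 0.0565 and 0.141. By limma on the log2 ratio 0 of 9 were called, with 0, 2 and 0 at an unadjusted p under 0.05. The share of all calls that were higher depended on scaling, at 37.9%, 49.0% and 31.0% here and 57.8%, 70.8% and 75.7% with library totals alone. The uncalled differences were largest for Sik1 in SCRP against SC (0.64 ± 0.42), followed by Crtc1 (0.46 ± 0.23), Sik1 (0.39 ± 0.39) and Crtc2 (0.39 ± 0.21) in SCRP against SCR. Intron reads numbered 101 to 187 a library for Crtc1 and 122 to 223 for Crtc2, and a p that misses the threshold does not show that the exon and intron changes were equal.

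The genes whose pattern over the 9 libraries was nearest to that of Sik1, by the root mean square difference of centred log2 CPM among 9736 genes at 5 CPM or more, were Oxnad1 (0.12), Gsdmd (0.13), Hagh (0.14), Lmna (0.15) and Relt (0.15). Gsdmd, which encodes the pore-forming protein gasdermin D, had mean levels of 48.6 CPM in SC, 163 in SCR and 93.5 in SCRP. For Sik3 the nearest were Sod2 (0.030), Glrx3 (0.033), Arf1 (0.034), Syk (0.034) and Ndufs3 (0.034). Syk, the kinase that carries immunoreceptor signals in osteoclasts, had mean levels of 255 CPM in SC, 317 in SCR and 247 in SCRP.

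Around the 9 genes, other parts of the pathway were counted in 8 lists that hold 71 distinct genes, and their counts stand beside the 59.1% of all genes called with RANKL and the 37.8% called with pterosin B added. Of the LKB1 partners and LKB1-activated kinases other than the salt-inducible kinases, 12 of 14 were tested, 2 rose and 4 fell with RANKL, with a median log2 change of -0.01. Nuak1, a kinase of this family, fell from 15.6 ± 0.459 to 8.58 ± 0.499 CPM (1.82-fold, adjusted p = 2.77e-06), and Stradb, a STRAD pseudokinase gene, fell from 18.7 ± 0.908 to 12.6 ± 0.437 (1.48-fold, adjusted p = 2.95e-05). With pterosin B, 2 of the 12 were higher, Strada (1.21-fold) and Prkaa1, which encodes a catalytic subunit of AMPK (1.19-fold). Of 4 AMPK regulatory subunit genes tested, 1 rose and 2 fell with RANKL, and 1 fell with pterosin B. Prkag2 gave both the rise, from 32.3 ± 1.83 to 46.3 ± 3.45 CPM, and the fall, to 20.8 ± 0.614 (2.23-fold, adjusted p = 3.41e-09).

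Genes that set cyclic AMP signalling moved in both directions. Of 8 protein kinase A subunit and inhibitor genes tested, 2 rose and 4 fell with RANKL (median -0.26), and 3 were higher with pterosin B (median 0.14). Pkib, an inhibitor gene, fell 5.61-fold with RANKL, from 26.7 ± 0.420 to 4.80 ± 1.31 CPM (edgeR, adjusted p = 8.38e-10). Prkacb, a catalytic subunit gene, fell from 403 ± 10.1 CPM in SC to 179 ± 7.99 in SCR and stood at 213 ± 13.4 in SCRP. The regulatory subunit gene Prkar2b fell from 101 ± 0.516 to 40.1 ± 4.10 CPM with RANKL and was 2.00-fold higher, at 80.2 ± 5.03, with pterosin B (adjusted p = 8.73e-09). Of 8 phosphodiesterase genes tested, which encode enzymes that break down cyclic AMP, 2 rose and 4 fell with RANKL (median -0.36), and 3 were higher and 2 lower with pterosin B (median 0.20). Pde8b rose from 8.80 ± 0.813 to 22.3 ± 2.73 CPM with RANKL and was 3.07-fold lower with pterosin B, at 7.28 ± 0.283 (adjusted p = 9.25e-09), and Pde3b went the other way, from 16.4 ± 1.71 to 6.53 ± 0.853 and then 11.6 ± 1.97.

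Downstream of the kinases the directions were mixed, except that most of the class IIa HDAC and MEF2 genes tested fell with RANKL. All 7 genes for 14-3-3 proteins were tested, 3 rose and 2 fell with RANKL (median 0.09), and 3 were higher and 2 lower with pterosin B (median -0.02), with Ywhaz going from 468 ± 8.95 to 599.8 ± 6.14 and then 454 ± 20.5 CPM. Of the 4 other CREB family and CBP/p300 genes, Atf1 rose and Crem fell with RANKL (median 0.09), Crem from 10.1 ± 0.545 to 4.09 ± 0.664 CPM, and Atf1 was lower with pterosin B (median 0.04). Of 12 listed CREB and CRTC targets that were tested, 4 rose and 5 fell with RANKL (median -0.22), and 2 were higher and 1 lower with pterosin B (median 0.16). Fos rose from 68.9 ± 9.50 to 258 ± 8.05 CPM with RANKL, while Nr4a1, an early cyclic AMP target, fell from 6.28 ± 0.543 to 2.26 ± 0.477. Fosb fell from 2.65 ± 0.206 to 0.141 ± 0.113 CPM with RANKL (19.2-fold, edgeR, adjusted p = 5.80e-05). The target lower with pterosin B was Il10, at 4.18 ± 0.603 CPM in SCR and 1.14 ± 0.620 in SCRP. Of 7 class IIa HDAC and MEF2 genes tested, 1 rose and 5 fell with RANKL (median -1.05), and 3 were higher and 1 lower with pterosin B (median -0.13). Mef2c, a transcription factor held down by those HDACs, went from 109 ± 12 CPM in SC to 23.8 ± 3.53 in SCR and 41.7 ± 5.24 in SCRP. Hdac9 fell from 49.0 ± 3.30 to 6.38 ± 1.52 CPM with RANKL (7.75-fold, edgeR, adjusted p = 3.42e-10).

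Of the 71 pathway genes, 11 were listed in the knockout table and 9 were tested, 7 higher and 2 lower in KO, which in a table of genes chosen for their change is a description only. Prkacb stood at 312 ± 8.03 CPM in KO against 146 ± 2.07 in WT, and Pde3b at 11.8 ± 1.35 against 3.89 ± 0.473. Pde8b was the lower of the phosphodiesterases, at 10.5 ± 0.0770 CPM in KO against 29.0 ± 0.701 in WT. Prkaa2, which encodes the other catalytic subunit of AMPK, stood at 0.537 ± 0.0359 CPM in KO against 2.28 ± 0.294 in WT, from 199 reads in the 6 libraries. All 3 class IIa HDAC and MEF2 genes tested in the knockout table were higher in KO. Their log2 changes were 1.41 ± 0.07 for Mef2c, 1.29 ± 0.12 for Hdac9 and 1.13 ± 0.04 for Mef2a.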

How the data were processed

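Exon and intron reads of 9 genes of the salt-inducible kinase pathway were taken from the 2 tables deposited for the series. Per the labels' protocols, directional libraries were prepared from 500 ng of RNA after ribosomal depletion. Genome build GRCm38 (mm10) is named per the submitters' processing notes, and gene positions of the 9 genes equal those of GENCODE mouse release M21. Which aligner, counter and strand were used is not given in the sources used here. The series design text mentions embryonic livers, and the labels, which name bone marrow monocytes, were followed.

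The deposited counts are whole exon, unique exon, intron and exon-exon reads per gene, per the file headers. Of exon counts from 1 to 39, between 75.3% and 79.0% a library were even in the pterosin B experiment, against 45.5% to 50.7% in the knockout experiment, and which unit (reads or pairs) was counted in each is not given. The deposited RPKM values are scaled for exon length and library total by the authors. The deposited p-values, with false discovery rates, come from a test named EDGE, per the file headers. A signed fold is the deposited score of that test. Other deposited values are gene coordinates and exon lengths. A further 163 per-sample columns were not used.

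The quasi-likelihood test of edgeR 4.0.16 (R 4.3.3) was run on the counts (two-sided, filterByExpr, TMM scaling, Benjamini-Hochberg adjustment over all genes tested, threshold 0.05, no minimum fold). SC, SCR and SCRP shared 1 fit, for exon reads (13650 genes, 6 residual degrees of freedom) and for intron reads (12665 genes). The difference between the exon and the intron change was an interaction of read type and group with a term for each library (11580 genes). The knockout table holds 2275 genes, all with an authors' false discovery rate of at most 0.05 and a fold of at least 2, so library totals were recovered from counts, exon lengths and RPKM and no TMM factors were applied (1773 genes, 4 residual degrees of freedom). No intron reads were taken from the knockout table, and the planned intron test of KO against WT was not run. CPM were computed here from counts and scaled library sizes. SD and SE include the spread between 3 libraries a group. The fits were tested on simulated data. DESeq2 1.42.0 and limma 3.58.1 (on log2 values with 0.5 CPM added) served as alternatives, beside other scalings, filters, read classes, a replicate block and leaving out each library.

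The 9 genes, the lists and the markers were chosen with earlier results of these data known. Pathway genes could be named where they passed and had the largest changes of their list in SCR against SC or SCRP against SCR. The limit was 4 a list and comparison, with a mean of at least 1 CPM, and not all such genes are named. Those listed in the knockout table could be named as well, and not all of them are. Tables and plots were made with Python 3.11.15, pandas 2.3.3, numpy 2.4.6 and matplotlib 3.10.9.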

Additional observations from a re-analysis of the deposited data

How the results depend on the processing

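Of 1100 recomputed values of single genes, 1013 kept their direction and their side of the threshold, 26 lost the call, 23 gained it and 38 changed sign, and the sign changed in 0 cases where the main value was called. Of the counts of calls among the 9 genes, which are small, those on intron reads moved by over 1.5 times without 1 library, and those on exon reads did not. Intron reads were fewer (3211716 to 4282065 a library) and had a higher common dispersion (0.0338 against 0.0072), and the part of either was not tested.

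Scaling by library totals alone changed the sign of these uncalled exon values: Crtc1 (0.09) and Crtc2 (0.10) in SCR against SC, and Sik3 (0.07) in SCRP against SC. It did the same for these differences between exon and intron change: Cab39 in SCR against SC (0.06), Crtc3 (0.03) and Sik2 (0.01) in SCRP against SCR, and Creb1 (0.05), Sik3 (0.12) and Stk11 (0.11) in SCRP against SC. Unique exon reads turned Sik2 in SCRP against SCR to -0.02, and the exon totals turned the intron value of Sik3 in SCRP against SC to 0.06. The cause of these changes was not tested.

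Calls that single settings added were Stk11 in SCR against SC (adjusted p = 0.00152 with library totals, 0.0389 with no filter, 0.0442 on unique reads, 0.0320 with only the 2 groups compared), Crtc3 in SCR against SC (0.0472 with DESeq2, 0.0459 with RLE factors, 0.0457 with no filter, 0.0441 on unique reads), Creb1 in SCR against SC (0.0428 with library totals) and the intron change of Stk11 in SCRP against SC (0.0486 with exon totals). With no filter on low counts the genes called on intron reads in SCRP against SCR were 2, Sik1 joining (-1.13, adjusted p = 0.0374). By limma, all genes with a different exon and intron change numbered 153 in SCR against SC (419 by edgeR), 103 in SCRP against SC (339) and 10 in SCRP against SCR (51).

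The main fits did not take the replicate numbers to pair the samples. Same-numbered libraries of the pterosin B experiment correlated at -0.0477 to 0.0954 and those of the knockout experiment at 0.0122 to 0.0924. Libraries of different numbers correlated at -0.0785 to 0.0532 and -0.0519 to 0.0318. Between SCR and SCRP the 3 same-numbered pairs (0.0494, 0.0954 and 0.0463) lay above the 6 others (at most 0.00704). Whether same-numbered libraries share a source is not settled by these values. With the replicate block, 2 of the 9 genes were called on intron reads in SCRP against SCR (Sik1, -1.15, adjusted p = 0.0420), and Stk11 passed in SCR against SC (adjusted p = 0.0175); it changed no other call.

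Leaving out 1 library gave 1 to 4 of the 9 genes called on intron reads in SCR against SC, 1 to 2 in SCRP against SC and 0 to 2 in SCRP against SCR. All genes with a different exon and intron change numbered 241 to 422, 187 to 324 and 22 to 53 in the same order. Uncalled exon values that changed sign were, in SCR against SC, Creb1 (-0.02 to 0.04), Crtc1 (-0.05 to 0.06) and Crtc2 (-0.05 to 0.05), and in SCRP against SCR, Sik2 (-0.0008 to 0.11). Uncalled intron values that did so were, in SCRP against SCR, Creb1 (-0.10 to 0.18) and Crtc1 (-0.23 to 0.03), and in SCRP against SC, Crtc3 (-0.01 to 0.17), Sik1 (-0.02 to 0.72) and Sik3 (-0.06 to 0.004). Differences between exon and intron change that did so were, in SCR against SC, Cab39 (-0.12 to 0.07) and Sik1 (-0.07 to 0.48), in SCRP against SCR, Creb1 (-0.01 to 0.28), Crtc3 (-0.19 to 0.08) and Sik2 (-0.22 to 0.04), and in SCRP against SC, Creb1 (-0.20 to 0.03), Crtc1 (-0.05 to 0.27), Crtc2 (-0.08 to 0.14), Sik3 (-0.08 to 0.02) and Stk11 (-0.10 to 0.01). Single libraries also added calls on exon reads for Stk11 and Crtc3 and on intron reads for Creb1, Crtc3 and Sik1.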
